A study of Homo sapiens with 4 samples.

Results

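The angiopoietins and angiopoietin-like genes encode secreted proteins that share a coiled-coil part and a fibrinogen-like part. The 8 genes described here, ANGPT1, ANGPT2, ANGPT4, ANGPTL1, ANGPTL2, ANGPTL4, ANGPTL6 and ANGPTL7, were selected by gene name from the 2864 genes of the table, with the rise of ANGPTL7 in A375+VEM already known. They comprise 3 angiopoietins and 5 angiopoietin-like genes, and the table holds 11 genes with such names in all. The rule used no threshold. The 3 family genes that were not selected had few reads, and the highest of their counts was 9 reads, for ANGPTL8 in A375+DMSO. The lowest of the selected genes, ANGPT2, reached 11 reads.

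RNA was sequenced from 4 cultures of A375, a human melanoma cell line whose genotype is labelled Wild Type in every sample, and all 4 carry the same batch label. The genotype label names no gene, and the study concerns resistance in melanoma with mutant BRAF. A375P was the untreated parental culture. A375R was the resistant cell strain, obtained by raising vemurafenib step by step and kept under the drug continuously. A375+DMSO was exposed to the solvent and A375+VEM to 2 μM vemurafenib, an inhibitor of mutant BRAF kinase, for 48 h each. The study pairs A375R with A375P, to find factors of lasting resistance, and A375+VEM with A375+DMSO, to find factors of the acute response. Whether A375R is a clone or a mixed population is not given in the sources used here. Each condition had 1 library, so differences could not be set against a spread between replicates, no test was made, and all intervals below cover counting error only.

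Angiopoietins are ligands of the receptor tyrosine kinase TEK on endothelial cells. ANGPT1 activates the receptor and stabilizes vessels, ANGPT2 opposes or replaces it depending on the setting, and ANGPT4 is a further ligand. The angiopoietin-like proteins do not bind TEK and act in varied ways: ANGPTL4 inhibits lipoprotein lipase and is a classic target of PPAR factors and of hypoxia, ANGPTL2 is an inflammatory factor of adipose tissue, ANGPTL6 is a circulating factor from liver linked to energy metabolism, ANGPTL1 is known as an inhibitor of vessel growth, and ANGPTL7 is best known from the cornea and the trabecular meshwork of the eye.

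Promoter sequences are shown for the 3 genes with the largest differences between A375+VEM and A375+DMSO, so that their starts can be compared. They come from RefSeq on GRCh38.p14, not on the build of the counts, and each runs from 250 bases before the start of the gene to 50 bases after it, 5′ to 3′ on the strand of the gene. Windows were taken for 6 of the 8 genes. None was taken for ANGPT1 and ANGPT2, and whether these genes have an entry was not examined. The windows lie at chr1:11189105-11189404 on the plus strand for ANGPTL7, chr19:8363905-8364204 on the plus strand for ANGPTL4 and chr20:916285-916584 on the minus strand for ANGPT4. Capitals mark TATAAA and ACGTG, the latter also as its complement CACGT.
ANGPTL7: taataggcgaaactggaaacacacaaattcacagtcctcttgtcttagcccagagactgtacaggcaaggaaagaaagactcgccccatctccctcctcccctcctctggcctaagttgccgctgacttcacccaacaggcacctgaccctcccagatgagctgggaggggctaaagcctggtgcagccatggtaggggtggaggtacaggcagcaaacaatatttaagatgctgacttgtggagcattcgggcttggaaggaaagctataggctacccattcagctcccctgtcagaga
ANGPTL4: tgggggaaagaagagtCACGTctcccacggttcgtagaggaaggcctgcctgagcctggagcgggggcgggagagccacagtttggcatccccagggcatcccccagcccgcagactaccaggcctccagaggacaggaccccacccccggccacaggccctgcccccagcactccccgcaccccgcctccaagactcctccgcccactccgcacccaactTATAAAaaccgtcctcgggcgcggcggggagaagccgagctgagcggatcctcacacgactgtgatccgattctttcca
ANGPT4: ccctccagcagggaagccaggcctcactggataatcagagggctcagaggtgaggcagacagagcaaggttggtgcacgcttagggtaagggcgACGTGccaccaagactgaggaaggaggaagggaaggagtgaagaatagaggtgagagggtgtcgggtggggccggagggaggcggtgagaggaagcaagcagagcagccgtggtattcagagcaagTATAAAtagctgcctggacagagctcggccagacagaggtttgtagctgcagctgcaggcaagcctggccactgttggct

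TATAAA, the core of the TATA box, stood on the gene strand 29 bases before the start of ANGPTL4 and 30 bases before that of ANGPT4. Of all 35116 windows, 2.17% held TATAAA on the gene strand between 35 and 25 bases before the start, and 11.5% held it anywhere on either strand. ACGTG, the core of the hypoxia response element, was found on the other strand 234 bases before the start of ANGPTL4 and on the gene strand 156 bases before that of ANGPT4, against 21.4% of all windows on either strand. None of the motifs searched had a match in the ANGPTL7 window, which says only that these letters are not in it. The other motifs were CACGTG, which contains ACGTG and was in 7.26% of all windows, GGAATG in 14%, TGACTCA in 4.95% and GTAAACA in 3.42%, all on both strands, and none of these had a match in the 3 windows shown. The ANGPTL7 window held 4 CpG dinucleotides, the ANGPT4 window 8 and the ANGPTL4 window 20, beside a median of 14 over all windows. GC content was 53.3% for ANGPTL7, 59% for ANGPT4 and 66.3% for ANGPTL4, beside a median of 58.7%.

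ANGPTL7 was nearly silent in the 3 other libraries and was the most abundant gene of the family in A375+VEM. It had 5 reads in A375P against 0 in A375R, and 5 in A375+DMSO against 1223 in A375+VEM. On the TPM scale, which is per gene length and per library, its level was 0.255 (95% Poisson interval 0.0827 to 0.595), 0 (up to 0.208), 0.273 (0.0887 to 0.637) and 67.3 (63.5 to 71.1) in that order. The single high library was thus A375+VEM, and the intervals of the other libraries overlapped each other.

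The TPM ratio of ANGPTL7 between A375+VEM and A375+DMSO was 246 (95% exact interval 105 to 760), or 7.50 on the log2(TPM + 0.1) scale, the largest log2 ratio among the 1784 genes compared in that pair. This rise was known when the genes were chosen and is given as a description. Against A375P the ratio was 264 (113 to 814). Against A375R, with its 0 reads set to the floor of 3 reads, ANGPTL7 was at least 397-fold higher in A375+VEM, and the exact interval of that ratio starts at 323. In bulk RNA, more cells that express a gene and more RNA per cell cannot be told apart. ANGPTL7 lies at 1:11249346-11256038 on hg19, the build named in the submitters' notes. On the GENCODE 29 annotation it lies wholly inside MTOR, on the opposite strand, and touches 0 of its 8 exons with an exon of MTOR. Whether the counting used the strand is not given, and MTOR was not analysed here.

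ANGPTL4, the lipoprotein lipase inhibitor, was detected in every library and was also highest in A375+VEM. It had 71 reads in A375P against 135 in A375R, and 120 in A375+DMSO against 531 in A375+VEM. In the same order the levels were 4.35 TPM (3.4 to 5.49), 9.15 (7.67 to 10.8), 7.88 (6.53 to 9.42) and 35.1 (32.2 to 38.2). A375P was the lowest library, A375R and A375+DMSO had overlapping intervals, and A375+VEM stood clear of all 3. The TPM ratio of A375+VEM was 4.46 (3.65 to 5.48) against A375+DMSO and 8.07 (6.29 to 10.5) against A375P. ANGPTL4 ranked 61 from the top of the 1784 log2 ratios. A375R was 2.1-fold (1.57 to 2.85) higher than A375P, but only 1.16-fold (0.902 to 1.5) higher than A375+DMSO, an interval that includes no difference. ANGPTL4 lies at 19:8429011-8439259 on the plus strand. On the GENCODE 29 annotation RAB11B-AS1, an antisense gene on the opposite strand, overlaps it in part and touches 1 of its 28 annotated exons, and reads from those bases cannot be assigned to either gene without known strand use.

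ANGPT4, the less studied ligand of TEK, moved the other way. It had 66 reads in A375P against 70 in A375R, and 43 in A375+DMSO against 2 in A375+VEM. In the same order its level was 1.64 TPM (1.27 to 2.09), 1.93 (1.5 to 2.43), 1.15 (0.829 to 1.54) and 0.0537 (0.0065 to 0.194), so that the A375+VEM interval lay below the other 3. The ratio of A375+VEM to A375+DMSO was 0.0468 (0.0055 to 0.18), a level 21.4-fold (5.56 to 182) lower, and against A375P it was 0.0327 (0.00388 to 0.123). The wide interval reflects the 2 reads. In A375R ANGPT4 did not fall: the ratio was 1.17 (0.827 to 1.67) to A375P and 1.68 (1.13 to 2.52) to A375+DMSO. ANGPT4 lies at 20:850542-896977, on the minus strand.

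**Figure D1:**
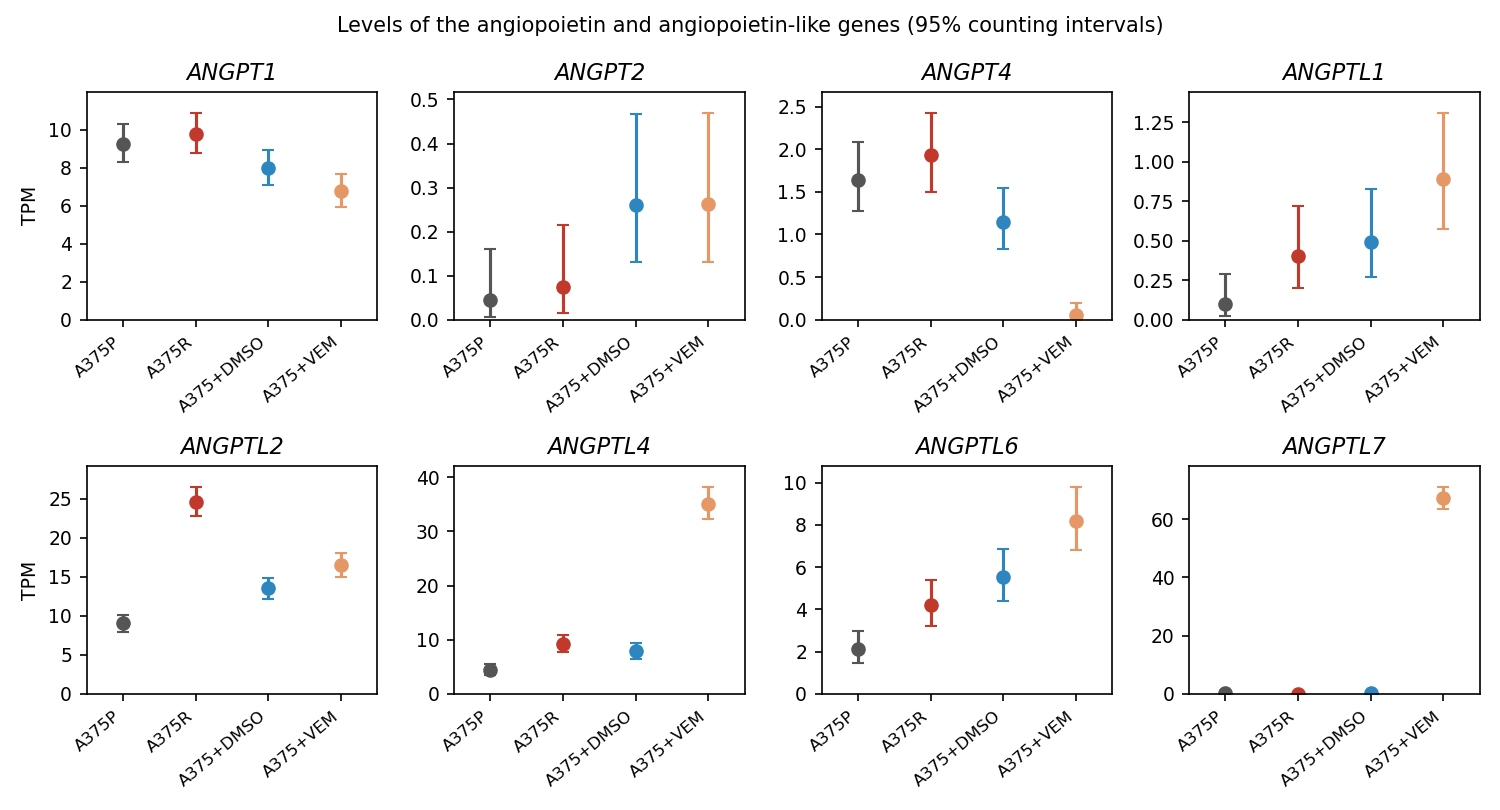
Levels in TPM (vertical axes, each starting at 0 with its own scale) of the 8 genes in the 4 libraries, 1 point per library with its 95% Poisson interval. ANGPTL7 and ANGPTL4 peak in A375+VEM at 67.3 and 35.1 TPM, ANGPTL2 peaks in A375R at 24.6 TPM, and ANGPT4 drops to 0.0537 TPM in A375+VEM.

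ANGPTL2, the inflammatory member, was the one gene of the family with its highest level in A375R by intervals that overlapped no other library. It had 276 reads in A375P against 681 in A375R, and 385 in A375+DMSO against 468 in A375+VEM. In the same order the levels were 9.02 TPM (7.98 to 10.1), 24.6 (22.8 to 26.5), 13.5 (12.2 to 14.9) and 16.5 (15 to 18.1). A375P was the lowest library, and the intervals of all 4 libraries were apart. The ratio of A375R was 2.73 (2.37 to 3.15) to A375P and 1.83 (1.61 to 2.08) to A375+DMSO, past 1.5-fold in both. A375+VEM stood at 1.22 (1.07 to 1.4) of A375+DMSO, under that threshold, but at 1.83 (1.57 to 2.13) of A375P, past it. ANGPTL2 lies at 9:129849628-129885044 inside RALGPS1, on the opposite strand, and touches 0 of its 11 exons with an exon of that gene, which was not analysed here.

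ANGPTL6, the liver factor, had 34 reads in A375P against 61 in A375R, and 83 in A375+DMSO against 122 in A375+VEM. In the same order its level was 2.12 TPM (1.47 to 2.96), 4.21 (3.22 to 5.4), 5.54 (4.41 to 6.87) and 8.2 (6.81 to 9.79). The interval of A375P lay below the other 3, while neighbouring intervals among these overlapped. A375R was 1.99-fold (1.28 to 3.12) above A375P but at 0.759 (0.536 to 1.07) of A375+DMSO, so the direction turned with the library taken as control. A375+VEM was at 1.48 (1.11 to 1.98) of A375+DMSO, just under 1.5-fold, and at 3.87 (2.63 to 5.84) of A375P.

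ANGPTL6 lies at 19:10203013-10213425 on the minus strand, and shares 916 bases of its span with C19orf66, which lies at 19:10196795-10203928 on the plus strand. C19orf66 had 311, 470, 517 and 723 reads in A375P, A375R, A375+DMSO and A375+VEM, the same order of libraries as ANGPTL6. Its ratio was 1.67 (1.45 to 1.94) between A375R and A375P and 1.41 (1.26 to 1.58) between A375+VEM and A375+DMSO. Without known strand use, reads of the pair in the shared bases cannot be told apart.

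ANGPT1, the activating ligand of TEK, was the steadiest of the 6 genes that reached a TPM of 1, by the ratio of its highest to its lowest level. It had 357 reads in A375P against 341 in A375R, and 287 in A375+DMSO against 241 in A375+VEM. In the same order the levels were 9.26 TPM (8.32 to 10.3), 9.79 (8.78 to 10.9), 7.98 (7.08 to 8.96) and 6.75 (5.92 to 7.65). A375+VEM was lowest, with an interval that overlapped A375+DMSO but neither A375P nor A375R. The ratio was 1.06 (0.909 to 1.23) between A375R and A375P and 0.846 (0.71 to 1.01) between A375+VEM and A375+DMSO, and both intervals include no difference. ANGPT1 lies at 8:108261710-108510283.

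ANGPT2 and ANGPTL1 never reached a TPM of 1 and took no part in the counts past 1.5-fold. ANGPT2, the antagonist-like ligand, had 2 reads in A375P against 3 in A375R, and 11 in A375+DMSO against 11 in A375+VEM. ANGPTL1 had 3, 11, 14 and 25 reads in that order. Both were lowest in A375P, and the ratio of A375+DMSO to A375P was 5.89 (1.29 to 54.7) for ANGPT2 and 5 (1.4 to 27.1) for ANGPTL1. Between A375+VEM and A375+DMSO the ratios were 1.01 (0.396 to 2.56) and 1.8 (0.899 to 3.74), and both intervals include no difference. ANGPT2 lies inside MCPH1 and ANGPTL1 inside RALGPS2, each on the opposite strand. An exon of MCPH1 touches 1 of the 15 annotated exons of ANGPT2, and reads from the shared bases cannot be told apart, while 0 of the 10 exons of ANGPTL1 are touched.

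**Figure D2:**
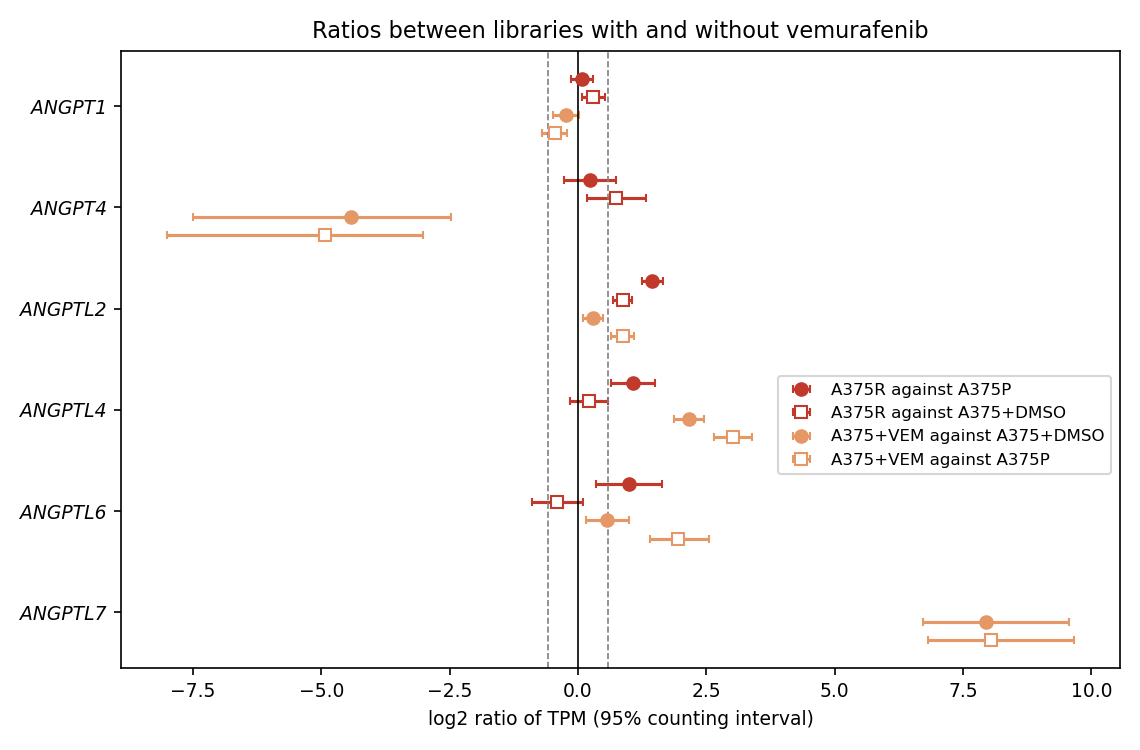
TPM ratios on a log2 axis (horizontal) with 95% exact counting intervals, for the 6 genes that reached a TPM of 1. Filled circles are the pairs of the study, open squares take the other library without vemurafenib as control, and dashed lines mark 1.5-fold. ANGPTL7 and ANGPTL4 lie to the right and ANGPT4 to the left in A375+VEM against both controls, while ANGPTL6 in A375R lies on either side of 0.

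Counted against 1.5-fold on the (TPM + 0.1) ratio, leaving out genes under a TPM of 1 in both libraries, A375R against A375P allowed 5 of the 8 genes to be compared. ANGPTL2, ANGPTL4 and ANGPTL6 were higher, 3 genes, and 0 were lower, beside 26.8% higher and 17.5% lower of all 1689 genes compared. The median log2 ratio was 0.96 over these 5 genes and 0.10 over all genes. ANGPT1 and ANGPT4 stayed within the threshold.

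In A375+VEM against A375+DMSO 6 of the 8 genes were compared. ANGPTL4 and ANGPTL7 were higher and ANGPT4 was lower, beside 26.5% higher and 19.7% lower of all 1784 genes. ANGPTL7 prompted the choice of the family and was compared only through its level in A375+VEM, so nothing is read from its part in these counts. Without it, 1 of 5 genes was higher and 1 lower, with a median log2 ratio of 0.29 beside 0.11 over all genes.

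The 2 libraries without vemurafenib were also compared. A375+DMSO against A375P had ANGPTL4 at 1.81 (1.34 to 2.46) and ANGPTL6 at 2.62 (1.74 to 4.02), which makes 2 of 5 genes higher and 0 lower, beside 26.8% and 18.9% of all 1720 genes, and with so few members this share is not read as a result about the family. ANGPTL2 stood at 1.49 (1.28 to 1.75), just under the threshold. Against A375+DMSO, A375R had 2 of 5 genes higher, ANGPT4 and ANGPTL2, and 0 lower, beside 10.5% higher and 9.99% lower of all 1702 genes. Comparisons that take the same library as control share its reads. ANGPTL2 was thus the one gene of the family past 1.5-fold in A375R against both libraries without the drug.

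**Figure D3:**
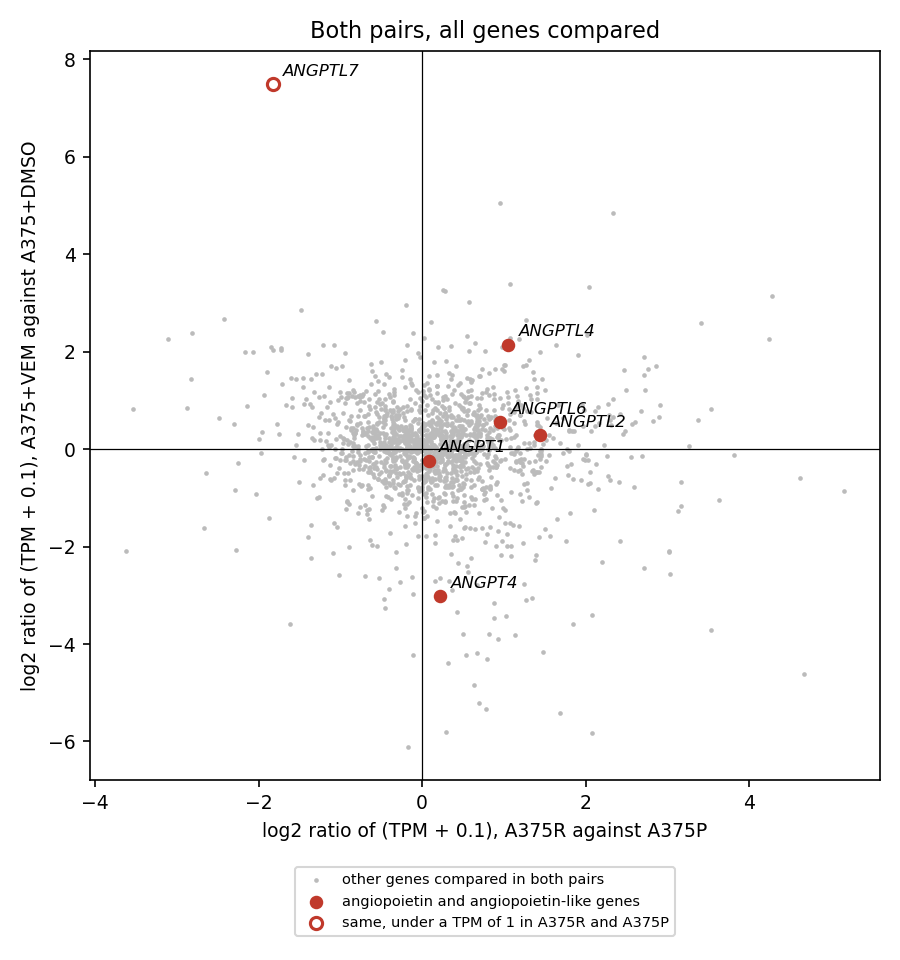
Log2 ratio of (TPM + 0.1) in A375R against A375P (horizontal) and in A375+VEM against A375+DMSO (vertical), 1 point per gene. Members are red and other genes compared in both pairs are grey. The open circle is ANGPTL7, which was under a TPM of 1 in A375R and A375P and was not compared in that pair. ANGPTL7 lies highest at 7.50, ANGPTL4 at 1.06 and 2.14, and ANGPT4 at 0.22 and -3.02.

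The make-up of the family in each library is given as a description, since ANGPTL7 was known to be high in A375+VEM. The TPM of the 8 genes summed to 26.8 in A375P against 50.2 in A375R, and 37 in A375+DMSO against 135 in A375+VEM. In A375P ANGPT1 gave 34.6% of the sum and ANGPTL2 33.7%, with overlapping intervals of their levels, followed by ANGPTL4. In A375R ANGPTL2 led with 49.1%, ahead of ANGPT1 and ANGPTL4, whose levels overlapped. In A375+DMSO ANGPTL2 led with 36.4%, and ANGPT1 and ANGPTL4 again overlapped. In A375+VEM ANGPTL7 gave 49.8%, ANGPTL4 26% and ANGPTL2 12.2%, with intervals that did not overlap, and ANGPT1 gave 5%. Without ANGPTL7 the other 7 genes summed to 26.5 and 50.2 TPM in A375P and A375R, and to 36.8 and 67.8 TPM in A375+DMSO and A375+VEM. Of that sum in A375+VEM, ANGPTL4 gave 51.8%, ANGPTL2 24.4% and ANGPT1 9.96%, beside 21.4%, 36.7% and 21.7% in A375+DMSO. ANGPTL6 and ANGPT1 overlapped there, and ANGPT2 and ANGPT4 overlapped at the bottom.

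**Figure D4:**
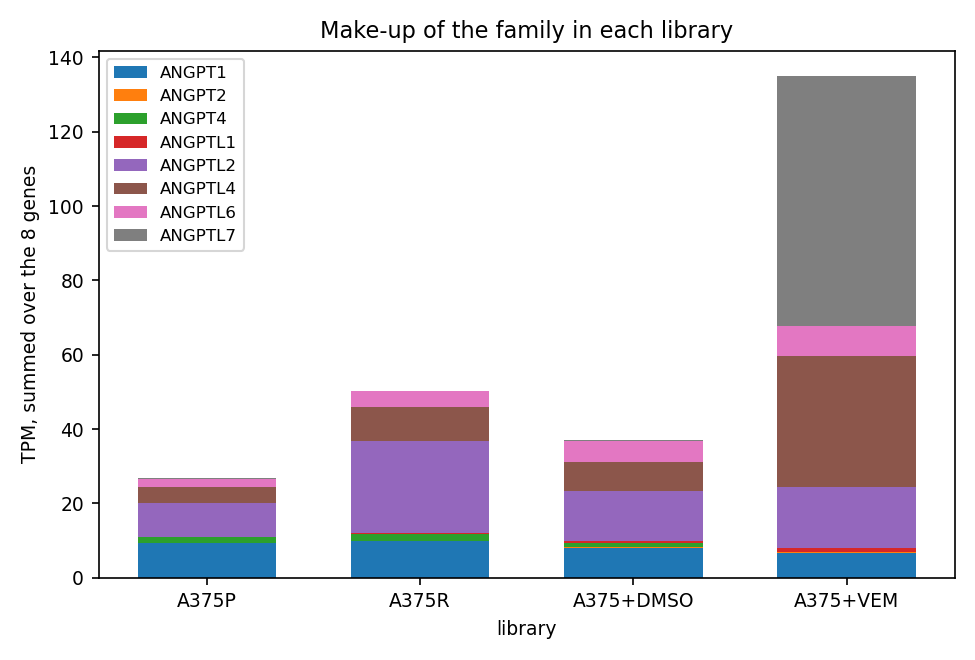
Summed TPM of the 8 genes in each library (vertical axis), with each bar split by gene. The bar is lowest at 26.8 in A375P and highest at 135 in A375+VEM, where ANGPTL7 takes 49.8% of the sum.

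The genes most like each member over the 4 libraries were sought by Euclidean distance of log2(TPM + 0.1), centred on the mean of the gene, among the 1817 genes that reached a TPM of 1 in some library. For ANGPTL7 the nearest gene was ACSBG1, an acyl-CoA synthetase, at a distance of 2.52, with 1, 4, 11 and 562 reads in A375P, A375R, A375+DMSO and A375+VEM. Next came BMF, a BH3-only death gene, at 3.08, with 72, 129, 144 and 4865 reads, and ANKDD1B at 3.39. For ANGPTL4 the nearest were ABCA7, a lipid transporter, at 0.22, ARSI, an arylsulfatase, at 0.24 and ANXA9, an annexin, at 0.29. For ANGPT4 they were ALDH1A3, a retinal dehydrogenase, at 0.38, ATAD2, a chromatin ATPase, at 0.45 and ARSG at 0.47. ALDH1A3 had 25187, 36303, 19879 and 2839 reads and so was low in A375+VEM, like ANGPT4. ANGPTL2 was nearest to BIVM at 0.26, AKR1B1 at 0.32 and APOBEC3C at 0.34, ANGPTL6 to APH1B at 0.09, AGBL3 at 0.10 and ADAM12 at 0.12, and ANGPT1 to ABCC4 at 0.07, AGO1 at 0.10 and AP4B1-AS1 at 0.10. The distances of ANGPTL7 exceeded those of the other members, but the measure is not scaled for the size of a change. ANGPTL7 had the largest log2 ratio of its pair, so its distances cannot show whether other genes share its pattern. ACSBG1 and BMF likewise had far more reads in A375+VEM than in any other library.

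Receptors of the family were mostly not analysed here, among them TEK, TIE1 and lipoprotein lipase. Of 17 genes listed for angiopoietin receptors and their signalling, 4 were in the table, all of them downstream. In A375R against A375P, BAD, a death gene of the BCL2 family, was at 1.6 (1.43 to 1.8). Its log2 ratio in A375R was -0.05 with A375+DMSO as control. In A375+VEM against A375+DMSO 0 of the 4 passed 1.5-fold in either direction, beside 26.5% higher and 19.7% lower of all genes. Of the 12 genes listed as bound by angiopoietin-like proteins only AGTR1 was in the table, which is known as the angiotensin II receptor rather than as a receptor of the family. It had 15, 114, 24 and 39 reads and was 8.41-fold (4.89 to 15.5) higher in A375R than in A375P.

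Genes of blood vessel growth went in both directions. Of 29 listed genes, 24 were compared in A375R against A375P, with 8 higher, 3 lower and a median log2 ratio of 0.26. Over all genes of that pair 26.8% were higher and 17.5% lower, with a median of 0.10. ANG, a secreted ribonuclease that promotes vessel growth, was 5.72-fold (3.05 to 11.7) higher, and ACVRL1, an endothelial receptor of the TGF-β family, had 0 reads in A375P and 36 in A375R, at least 13.3-fold higher at the floor of 3 reads, with an exact interval that starts at 10.3. The median of the list was also 0.26 with ACVRL1 at that bound. ADM, the vessel-dilating peptide adrenomedullin, was at 0.205 (0.177 to 0.237), and APLN, the ligand apelin, at 0.52 (0.328 to 0.808). With A375+DMSO as control, the log2 ratios of A375R were 0.24 for ANG, 0.37 for ACVRL1, -0.25 for ADM and 0.00 for APLN, all within 1.5-fold. In A375+VEM against A375+DMSO 6 of 24 were higher and 6 lower, with a median of -0.22. Over all genes 26.5% were higher and 19.7% lower, with a median of 0.11. AQP1, a water channel, stood at 2.95 (2.06 to 4.29) and AGT, angiotensinogen, at 2.87 (1.7 to 5.04), while ADM was at 0.234 (0.175 to 0.307) and APLN at 0.189 (0.0645 to 0.458).

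ANGPTL4 is a known target of PPAR factors and of hypoxia, and both lists were set beside it. Of the 19 PPAR target genes, 13 were compared in A375+VEM against A375+DMSO, with 4 higher, 3 lower and a median of 0.32. Over all genes 26.5% were higher and 19.7% lower, with a median of 0.11. ACSBG1 stood at 51.4 (28.5 to 104) and ACSL5 at 2.13 (1.61 to 2.85), both acyl-CoA synthetases, against ACOX2, a peroxisomal oxidase, at 0.256 (0.18 to 0.358) and ACSL3 at 0.442 (0.414 to 0.471). In A375R against A375P 2 of 12 were higher, ACSL5 at 2.14 and ACOX3 at 1.77, and 2 lower, APOC3 at 0.542 and APOA2 at 0.587. Their list had a median of 0.17 in that pair, beside 0.10 over all genes, of which 26.8% were higher and 17.5% lower. With A375+DMSO as control, the log2 ratios of A375R were 0.28 for ACSL5, -0.44 for ACOX3, 0.17 for APOC3 and -0.54 for APOA2.

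Of the 13 hypoxia-inducible genes, 12 were compared in A375+VEM against A375+DMSO, with 1 higher, 4 lower and a median of -0.30, beside 26.5% higher and 19.7% lower of all genes, and ANGPTL4 was at 2.14 on the log2 scale. The higher one was ANKRD37 at a ratio of 2.11 (1.59 to 2.81), and ADM and the carbonic anhydrase CA9, at 0.331 (0.26 to 0.419), were among the lower. In A375R against A375P 2 of 11 were higher, the glycolytic ALDOC at 6.53 and the mitophagy receptor BNIP3L at 1.54, and 5 lower, among them ADM and the clock factor BHLHE41 at 0.24, with a median of -0.52, beside 26.8% and 17.5% of all genes. With A375+DMSO as control, the log2 ratios of A375R were -1.67 for ALDOC, -0.02 for BNIP3L, -0.25 for ADM and -0.11 for BHLHE41. Between A375+DMSO and A375P, where ANGPTL4 was also higher in A375+DMSO, 3 of 12 were higher and 4 lower, with a median of 0.32. These counts stood beside 26.8% higher and 18.9% lower of all 1720 genes, whose median was 0.09. CA9 had 1 read in A375P and 289 in A375+DMSO there, and ALDOC had 82 and 1598. Among the lower ones, BHLHE40 had 2335 and 532 reads and ADM had 1208 and 276.

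The label of the cells was checked against 3 of 12 melanocyte markers in the table. BCAN, a brain proteoglycan used as one of them, had a TPM of 34.1, 27.6, 15.4 and 16.9, but ABCB5 had at most 6 reads and BIRC7 at most 18. The more usual markers, such as MLANA and PMEL, were not analysed here. The summed TPM of the 3 was 34.4, 27.7, 16.2 and 18.6 in A375P, A375R, A375+DMSO and A375+VEM. In A375R against A375P 0 of 1 compared passed 1.5-fold, beside 26.8% higher and 17.5% lower of all genes. In A375+VEM against A375+DMSO 1 of 2, BIRC7 at 2.01 (0.859 to 5.09), was higher, beside 26.5% higher and 19.7% lower of all genes.

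Angiopoietins are commonly made by cells of the vessel wall, so markers of those cells were examined. The 8 endothelial markers of 14 in the table summed to 12.5, 12.9, 7.05 and 10.8 TPM. ADGRL4, an adhesion receptor of endothelial cells, gave 11, 9.57, 2.56 and 2.4 TPM of these sums, with 342, 268, 74 and 69 reads. APLNR had at most 2 reads, ARHGEF15 at most 3 and BCL6B at most 6. In A375+VEM against A375+DMSO 3 of 5 were higher, ACVRL1, AQP1 and ACKR1, with 28, 42 and 7 reads against 52, 123 and 23, and BMX, a kinase, was lower with 28 reads against 2. In A375R against A375P 1 of 3 was higher, ACVRL1, and 0 lower. The 7 smooth muscle and fibroblast markers of 10 summed to 117, 77.2, 108 and 93.6 TPM, with ACTA2 at 92.2, 35, 28.3 and 40.1 TPM and ASPN at most at 4 reads. Here 1 of 4, ABI3BP at 1.81 (1.45 to 2.27), was higher and 1, the matrix proteoglycan BGN at 0.608 (0.558 to 0.661), lower in A375+VEM. Between A375R and A375P, BGN was higher in A375R at 1.88 (1.67 to 2.12) and ACTA2, a smooth muscle actin, lower at 0.379 (0.342 to 0.42), of 3 compared. With A375+DMSO as control, the log2 ratios of A375R were -0.90 for BGN and 0.31 for ACTA2. Over all genes 26.5% were higher and 19.7% lower in A375+VEM against A375+DMSO, and 26.8% and 17.5% in A375R against A375P. With so few markers compared, their shares are not read as a result. The part of these markers in the values of the family was not tested.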

How the data were processed

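RNA-seq of 4 cultures was used, with 1 library each. The authors deposited whole-number read counts without normalization. The authors also deposited TPM, which scales counts per base of gene to the same sum in every library. The submitters' processing notes name hg19, HISAT2, HISAT, TopHat2 and Bowtie2, with no version or role, and the counting program and its strand setting are not given in the sources used here. The table begins the alphabet and stops within C. It has 2864 genes, and 1 incomplete line was left out. It holds 1891215 to 2054277 reads per library and 8.48% to 8.94% of the TPM, so these reads are not the library depth.

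Ratios are of TPM, and log2 ratios and the 1.5-fold threshold are on (TPM + 0.1), which understates the change of low genes, leaving out genes under a TPM of 1 in both libraries. Intervals are at 95%, exact Poisson for levels and Clopper-Pearson for ratios scaled by the sums behind the TPM, and compare libraries, not conditions. PCR reads without molecular identifiers are not independent molecules. A library with 0 reads was set to a floor of 3 reads. The scripts used matplotlib 3.10.9, pandas 2.3.3, scipy 1.17.1 and numpy 2.4.6 under Python 3.11.15. Only the ratio and interval steps were tested on simulated data, where the changed genes did not include genes with few reads in A375P.

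The 8 members and all lists were chosen with earlier results of these data known. Named were the members, the 2 highest and 2 lowest genes past 1.5-fold of each list (blood vessel growth, PPAR targets, hypoxia, lipoproteins, receptors and 3 marker lists) in each pair of the study, the 3 genes nearest to each member that reached a TPM of 1, and genes overlapping a member. Hypoxia genes were also named in this way in A375+DMSO against A375P. Other markers were named for their low reads or for their part of a sum. Alternatives were pseudocounts of 0.01 and 1, no filter, a TPM of at least 5, a 2-fold threshold, a scaling to a median ratio of 1 and the other control. Some genes of the table are not reported here.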

Additional observations from a re-analysis of the deposited data

How the results depend on the processing

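No paired analysis was possible because each condition had 1 library, and for the same reason no library could be left out. The count of members past 1.5-fold in A375+VEM against A375+DMSO was 3 and stayed between 2 and 4 under the alternatives run. In A375R against A375P it was 3, with 5 without the filter on low values and 2 both at a TPM of at least 5 and at 2-fold, where ANGPTL6 was lost. In A375+DMSO against A375P it was 2, with 4 without the filter and 1 at 2-fold. In A375R against A375+DMSO it was 2, with 4 without the filter, 1 at a pseudocount of 1, 1 at a TPM of at least 5 and 0 at 2-fold. With the other library without vemurafenib as control, 5 of 11 member values stayed within their counting intervals, 5 moved outside and 1 turned direction. The log2 ratio of ANGPTL6 in A375R turned from 0.96 against A375P to -0.39 against A375+DMSO. That of ANGPTL4 went from 1.06 to 0.21 and that of ANGPTL2 from 1.44 to 0.86. In A375+VEM, taking A375P for A375+DMSO, ANGPTL2 went from 0.29 to 0.86, ANGPTL4 from 2.14 to 2.98 and ANGPTL6 from 0.56 to 1.90. At a pseudocount of 1 the log2 ratio in A375+VEM against A375+DMSO was 5.74 for ANGPTL7 and -1.03 for ANGPT4. Scaling to a median ratio of 1, which divides TPM ratios by a median that is 0.10 on the log2 scale in A375R against A375P and 0.11 in A375+VEM against A375+DMSO, left 11 of 11 member values within their counting intervals, and that of ANGPT1 in A375R against A375P went from 0.08 to -0.02. Values without ANGPTL7 and A375R as the comparator of A375+VEM were chosen after seeing the data, and against A375R ANGPTL2 was at -0.57 and ANGPT1 at -0.53 on the log2 scale. The few reads of ANGPT2, ANGPTL1 and, in A375+VEM, ANGPT4 limit what can be said of them.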

Other observations

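Among the family genes outside the 8, ANGPTL5 had 0 reads in A375P against 0 in A375R, and 3 in A375+DMSO against 0 in A375+VEM. ANGPTL8, a circulating factor from liver and fat, had 6, 3, 9 and 5 reads in that order.

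Lipoprotein genes, whose products carry the lipids that lipoprotein lipase acts on, were compared in the same pairs. In A375+VEM against A375+DMSO 6 of 14 were higher and 1 lower, with a median log2 ratio of 0.35. Over all genes 26.5% were higher and 19.7% lower, with a median of 0.11. APOD, a lipocalin, was at 6.67 (3.92 to 12.1), APOL1 at 2.47 (1.95 to 3.16) and ABCG1, a cholesterol exporter, at 0.262 (0.192 to 0.353). For A375R against A375P 3 of 13 were higher and 4 lower, with a median of -0.19. Over all genes 26.8% were higher and 17.5% lower, with a median of 0.10. ABCG1 was at 5.57 (4.18 to 7.54) and APOL1 at 2.75 (1.88 to 4.1) there, while APOD was at 0.158 (0.0403 to 0.452) and APOM at 0.351 (0.173 to 0.668). ABCG1 and APOD thus lay on opposite sides of 1 in the 2 pairs, and that difference was not tested. The controls differed too, as ABCG1 had a TPM of 1.84 in A375P and 7.46 in A375+DMSO. Its TPM was 10.3 in A375R and 1.96 in A375+VEM. With A375+DMSO as control, the log2 ratios of A375R were 0.46 for ABCG1, 0.02 for APOL1, -1.75 for APOD and -0.15 for APOM.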
